A study of Mus musculus with 212 samples.

Results

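The second day of culture was set against the first day in 4 time courses of mouse skin fibroblasts, with each gene read at equal clock phase. The libraries labelled CT24 to CT45 (second day, 8 per course) and CT00 to CT21 (first day, 8 per course) were taken from the AM and PM courses of Bmal1-/- and of WT cells. These are 64 of the 212 libraries of the series, 32 on each day, and no measured value was used to choose them. Each second-day library was paired with the library of its course taken 24 h earlier, which gave 16 pairs per genotype.

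Cells of both genotypes were C57BL/6 skin fibroblasts, grown to confluence in medium with serum. All of them, WT included, received 100 nM dexamethasone for 15 min, a glucocorticoid pulse that brings the clocks of cultured cells to a shared phase. They were then washed and held in HEPES-buffered serum medium in constant darkness. Harvest began 48 h after the pulse and went on every 3 h in AM and PM. The labels give n = 3 per time point and genotype, but each time point is 1 library, and they do not state whether wells were pooled. The meaning of the names AM and PM, the deleted part of Bmal1 (Arntl) and the number of animals or isolates are likewise absent from the labels. The p-values below measure the spread between libraries of these courses, and pairs next to each other in time are not independent samples.

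A fibroblast makes and remodels extracellular matrix and contracts through stress fibres. The clock in these cells is a feedback loop in which BMAL1 and CLOCK switch on Per and Cry genes, whose products then shut BMAL1 and CLOCK off. A gene that cycles returns to its level after a full cycle, whereas a gene that drifts with time in culture does not. Libraries 24 h apart therefore read the drift and leave out most of the cycle.

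Depth, estimated from the FPKM that a single read gives, was between 9.89 M and 26.94 M reads per library (M, 1e6), with a median of 20.59 M. The day groups of a course differed little in depth, with medians of 22.03 M and 23.31 M reads on the second and the first day in Bmal1-/- AM, 19.71 M and 20.41 M in Bmal1-/- PM, 18.7 M and 18.15 M in WT AM, and 22.05 M and 19.59 M in WT PM. WT AM at CT36 was the shallowest library and stood apart from its course. There, 411 genes lay more than 2-fold from their course median, against 88 to 154 in the other AM and PM libraries. Its depth of 9.89 M reads is uncertain, and another estimate for this library was lower. WT AM at CT12, estimated at 10.31 M reads, had 150 such genes. Arntl reads were present in both genotypes, so these gene-level values do not test the deletion. Arntl ranged over 5.99 to 7.13 FPKM on the second day and 6.13 to 7.25 FPKM on the first day in Bmal1-/- AM, and over 6.75 to 7.72 and 6.77 to 8.14 FPKM in Bmal1-/- PM. It ranged over 5.85 to 8.97 FPKM on the second day and 3.62 to 9.59 FPKM on the first day in WT AM, and over 6.14 to 9.52 and 5.27 to 10.2 FPKM in WT PM.

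The drift was broad and small. FPKM counts reads per kilobase of transcript and per 1e6 reads, and 13311 genes averaged 1 FPKM or more. On log2(FPKM + 1), with the pair as a block, limma passed 573 genes as higher and 524 as lower on the second day in Bmal1-/- cells, which is 4.3% and 3.94% of those tested. In WT cells it passed 1406 as higher and 1727 as lower, which is 10.6% and 13.0%. A gene passed where its Benjamini-Hochberg adjusted p over all 13311 genes was under 0.05 and its sign was the same in AM and in PM. The change in FPKM + 1 was under 1.5-fold for 99.5% of genes in Bmal1-/- cells and 99.2% in WT cells. Its median size on the log2 scale was 0.051 and 0.073 in the same order. With a limit of 1.5-fold in FPKM + 1 added, 2 genes were higher and 2 lower in Bmal1-/- cells (0.015% of genes in each direction). In WT cells 17 were higher and 23 lower (0.128% and 0.173%). The pseudocount of 1 FPKM, added to each value, understates the fold change of genes at a few FPKM or less. With a pseudocount of 0.1 FPKM the counts were 13 and 7 in Bmal1-/- cells and 37 and 57 in WT cells. FPKM values are relative within a library, and in whole cultures fewer cells of a type and less RNA per cell cannot be told apart.

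The AM and PM courses share no library, so each can be read against the other. Of 701 genes past the adjusted p in Bmal1-/- AM alone, 83.2% had the same sign in PM, and of 428 past it in PM alone, 80.1% had the same sign in AM, against 57.0% of all genes tested. In WT cells 78.6% of 1530 genes from AM alone and 74.1% of 2965 from PM alone had the same sign in the other course, against 60.1% of all genes. The genotypes overlapped in part. Of 496 genes that passed in both, 412 had the same sign, 167 higher and 245 lower. These 412 are 37.6% of the genes that passed in Bmal1-/- cells and 13.2% of those that passed in WT cells.

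**Figure D1:**
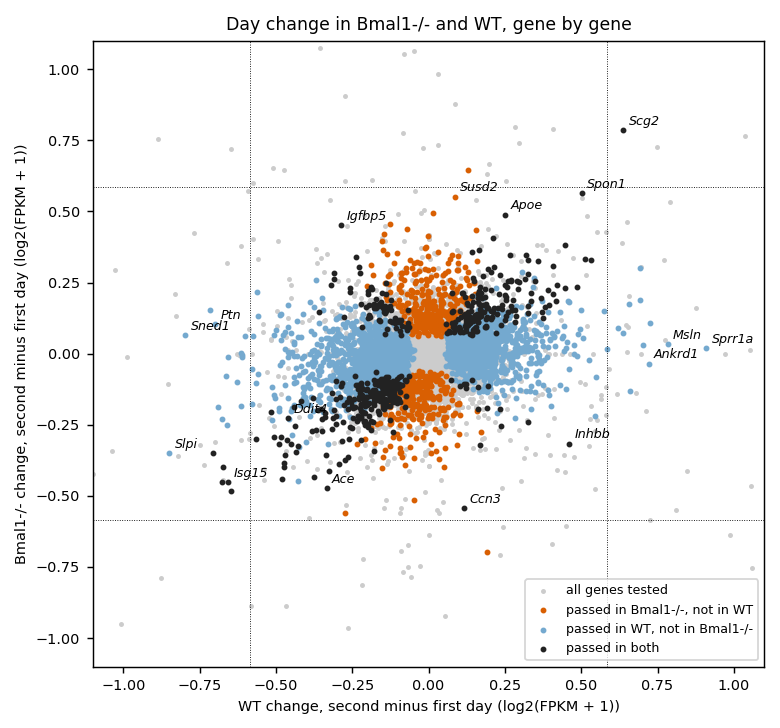
Day change of each gene tested in Bmal1-/- cells (vertical) against WT cells (horizontal), as second minus first day on log2(FPKM + 1). Dotted lines mark 1.5-fold, colours mark the genotype in which a gene passed, and 24 genes lie outside the axes; Scg2 is past 1.5-fold in both genotypes and most coloured points lie inside the dotted lines.

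Among the genes past 1.5-fold, Scg2 was the one shared by both genotypes. It encodes secretogranin II, a precursor of neuropeptides stored in secretory granules. In Bmal1-/- AM its lowest, median and highest libraries were 3.01, 3.27 and 5.39 FPKM on the second day, against 1.23, 1.5 and 2.22 FPKM on the first day. In Bmal1-/- PM they were 14.5, 19.5 and 24.7 FPKM, against 8.62, 10.3 and 15.7 FPKM. The days did not overlap in Bmal1-/- AM, overlapped in Bmal1-/- PM, and stood several times higher in PM than in AM. WT AM had 2.91, 5.04 and 5.75 FPKM on the second day, against 1.59, 2.55 and 3.91 FPKM on the first day. WT PM had 10.2, 13.4 and 16.2 FPKM, against 6.7, 7.93 and 13.4 FPKM, and both WT courses overlapped between the days. Scg2 rose in 16 of 16 Bmal1-/- pairs by 0.79 ± 0.07 (log2, SE) and in 16 of 16 WT pairs by 0.64 ± 0.07, with adjusted p of 4.99e-09 and 3.46e-08. The libraries at CT48, a further cycle on, read 6.92 FPKM in Bmal1-/- AM, 23.2 in Bmal1-/- PM, 7.45 in WT AM and 14.9 in WT PM, each above the CT24 library of its course.

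Spon1, the secreted matrix protein spondin 1, was chosen after its values were seen. Its medians were 5.13 and 3.1 FPKM on the second and the first day in Bmal1-/- AM, 4.97 and 3.3 FPKM in Bmal1-/- PM, 9.3 and 6.23 FPKM in WT AM, and 8.38 and 5.87 FPKM in WT PM. It rose in every pair, by 0.56 ± 0.07 in Bmal1-/- cells and 0.50 ± 0.07 in WT cells, and WT PM was the course whose days did not overlap. Fmod, a small proteoglycan that binds collagen fibrils, rose by 0.25 ± 0.04 in Bmal1-/- cells and 0.30 ± 0.04 in WT cells, and its relative Ogn by 0.31 ± 0.07 and 0.41 ± 0.07. Fbln5, which helps to assemble elastic fibres, rose by 0.26 ± 0.04 and 0.32 ± 0.04, and Adamts5, a protease that cuts aggrecan, by 0.26 ± 0.04 and 0.35 ± 0.04. Lox, the enzyme that cross-links collagen and elastin, rose by 0.24 ± 0.03 and 0.25 ± 0.03. The difference between genotypes did not pass for any of these 6 genes, with adjusted p of 0.311 to 0.916. Txnip, an inhibitor of thioredoxin that also limits glucose uptake, rose by 0.23 ± 0.04 and 0.29 ± 0.04, and Cited2, a transcriptional co-regulator, by 0.30 ± 0.03 and 0.21 ± 0.03.

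Genes lower on the second day in both genotypes included Ddit4, a stress-induced brake on mTORC1. It fell by 0.23 ± 0.04 in Bmal1-/- cells and 0.46 ± 0.04 in WT cells, in every pair of each. In Bmal1-/- PM all 8 second-day libraries lay below every first-day library, and in each of the other 3 courses 7 of 8 did. Tgfbi, an adhesion protein of the matrix, fell by 0.32 ± 0.06 and 0.45 ± 0.06, and Plac8, a small cysteine-rich protein, by 0.35 ± 0.07 and 0.71 ± 0.07. Ace, the angiotensin-converting enzyme, fell by 0.47 ± 0.04 and 0.33 ± 0.04, and Dlk1, a Notch-like inhibitor of fat cell formation, by 0.43 ± 0.06 and 0.38 ± 0.06; Ace and Dlk1 were chosen after their values were seen.

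The genes of contraction and of the YAP program rose in WT cells. YAP and its partners, the TEAD factors, switch on Ankrd1, Ccn1 and Ccn2 when cells spread and pull, and serum response factor switches on Acta2 and Tagln of the actin cytoskeleton. Of 16 members tested of 20 listed, 2 rose in Bmal1-/- cells, beside 4.3% of all genes, and 12 rose in WT cells, beside 10.6%. The list's median change was 0.07 in Bmal1-/- and 0.37 in WT cells (log2), against -0.002 and -0.009 over all genes tested. The list mean was higher on the second day in 11 of 16 Bmal1-/- pairs and in 16 of 16 WT pairs, where it lay between 0.01 and 0.62. The day change differed between genotypes for 10 of the 16 members, each with the more positive change in WT, beside 3.93% of all genes in that direction, and for 3 in AM alone and 6 in PM alone.

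Ankrd1, an ankyrin repeat protein of nucleus and sarcomere, reached at most 1.23 FPKM in any Bmal1-/- library of the 2 days. Its lowest, median and highest libraries were 0.421, 0.661 and 0.914 FPKM on the second day and 0.509, 0.674 and 1.23 FPKM on the first day in Bmal1-/- AM, and 0.259, 0.449 and 0.612 and 0.254, 0.506 and 0.779 FPKM in Bmal1-/- PM. WT AM had 14.1, 16.9 and 25.4 FPKM on the second day, against 7.58, 10.9 and 13.2 FPKM on the first day, and WT PM had 17.2, 24.1 and 33.3 FPKM, against 9.51, 14.4 and 18.5 FPKM. The days did not overlap in WT AM, and in WT PM 7 of 8 second-day libraries lay above every first-day library. The change was -0.04 ± 0.07 in Bmal1-/- cells (adjusted p 0.816) and 0.72 ± 0.07 in WT cells (adjusted p 1.69e-09), and the difference was -0.76 ± 0.09 (adjusted p 2.63e-06). A level under the pseudocount of 1 FPKM, as in Bmal1-/- cells, compresses any change on this scale.

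Ccn1, a matricellular protein that binds integrins, was well detected in both genotypes. Its medians were 27 and 21.2 FPKM on the second and the first day in Bmal1-/- AM, 23.6 and 21.2 FPKM in Bmal1-/- PM, 55.7 and 33.9 FPKM in WT AM, and 70.3 and 48.2 FPKM in WT PM. WT AM was the course without overlap between the days. The change was 0.19 ± 0.06 in Bmal1-/- cells (adjusted p 0.0562) and 0.69 ± 0.06 in WT cells, and the difference passed at -0.50 ± 0.09. Ccn2, its close relative, had medians of 4.88 and 4.72 FPKM in Bmal1-/- AM, 2.97 and 3.19 FPKM in Bmal1-/- PM, 9.71 and 5.54 FPKM in WT AM, and 4.86 and 2.62 FPKM in WT PM. It was at -0.13 ± 0.11 in Bmal1-/- cells and rose by 0.66 ± 0.11 in WT cells. Tagln, an actin-binding protein of smooth muscle and activated fibroblasts, had medians of 41.1 and 41.9 FPKM in Bmal1-/- AM, 31.9 and 30.7 FPKM in Bmal1-/- PM, 51.5 and 31.8 FPKM in WT AM, and 50.4 and 33.7 FPKM in WT PM. It was at 0.07 ± 0.06 in Bmal1-/- cells and rose in 16 of 16 pairs by 0.64 ± 0.06 in WT cells. Amotl2, a YAP-binding angiomotin, passed in both genotypes, at 0.15 ± 0.05 in Bmal1-/- cells and 0.37 ± 0.05 in WT cells.

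The promoters of Ankrd1 and Ccn1 are shown because both genes rose in WT cells and both hold the MCAT letters that TEAD factors bind, GGAATG, or CATTCC on the other strand. The stretches are RefSeq sequences on GRCm38.p6, read 5′ to 3′ on the gene's strand with 1 match in capitals. The match ends 118 bases before the RefSeq start in Ankrd1 and 98 bases before it in Ccn1. The stretches are chr19:36119902-36120027 for Ankrd1 and chr3:145650023-145650148 for Ccn1, both on the minus strand. GENCODE M21, the source of the symbols, sets the Ankrd1 start further upstream, at chr19:36120099. By that annotation the Ankrd1 stretch lies within the gene and not before it.
Ankrd1: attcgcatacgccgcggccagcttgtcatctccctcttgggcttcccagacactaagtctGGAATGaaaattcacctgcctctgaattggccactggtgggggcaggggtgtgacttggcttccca
Ccn1: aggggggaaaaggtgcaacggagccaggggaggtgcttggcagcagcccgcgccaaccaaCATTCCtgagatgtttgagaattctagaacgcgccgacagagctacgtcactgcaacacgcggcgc
Within the 250 bases before the start, 8 of the 14 list members with a promoter entry held a match on either strand, and so did 12.9% of the 9234 tested genes with an entry. A match of these letters describes the sequence and does not show that a factor binds there.

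Other genes past 1.5-fold upward in WT cells lay outside that list. Sprr1a, a small proline-rich protein of the cornified envelope, had second-day libraries of 3.55 to 9.18 FPKM in WT AM and 3.98 to 10.9 FPKM in WT PM, above the first-day ranges of 1.14 to 3.42 and 1.76 to 3.74 FPKM with no overlap. Its change was 0.02 ± 0.11 in Bmal1-/- cells, where the highest library had 1.77 FPKM, and 0.91 ± 0.11 in WT cells. Msln, the surface glycoprotein mesothelin, was at 0.03 ± 0.09 in Bmal1-/- cells and rose by 0.78 ± 0.09 in WT cells. Its WT medians were 2.61 and 1.22 FPKM in AM and 2.37 and 1.19 FPKM in PM. In Bmal1-/- cells they were 0.857 and 0.744 FPKM in AM and 0.802 and 0.764 FPKM in PM. These lie under the pseudocount of 1 FPKM, which compresses any change there. Fgf18, a fibroblast growth factor, rose by 0.73 ± 0.08 in WT cells, Fgd3, an exchange factor for Cdc42, by 0.70 ± 0.06, and Tnc, the matrix glycoprotein tenascin C, by 0.66 ± 0.08. In Bmal1-/- cells these 3 did not pass. Thbs1, the matricellular protein thrombospondin 1, rose in both genotypes, by 0.23 ± 0.05 in Bmal1-/- cells and 0.49 ± 0.05 in WT cells, and the difference passed at -0.25 ± 0.07.

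**Figure D2:**
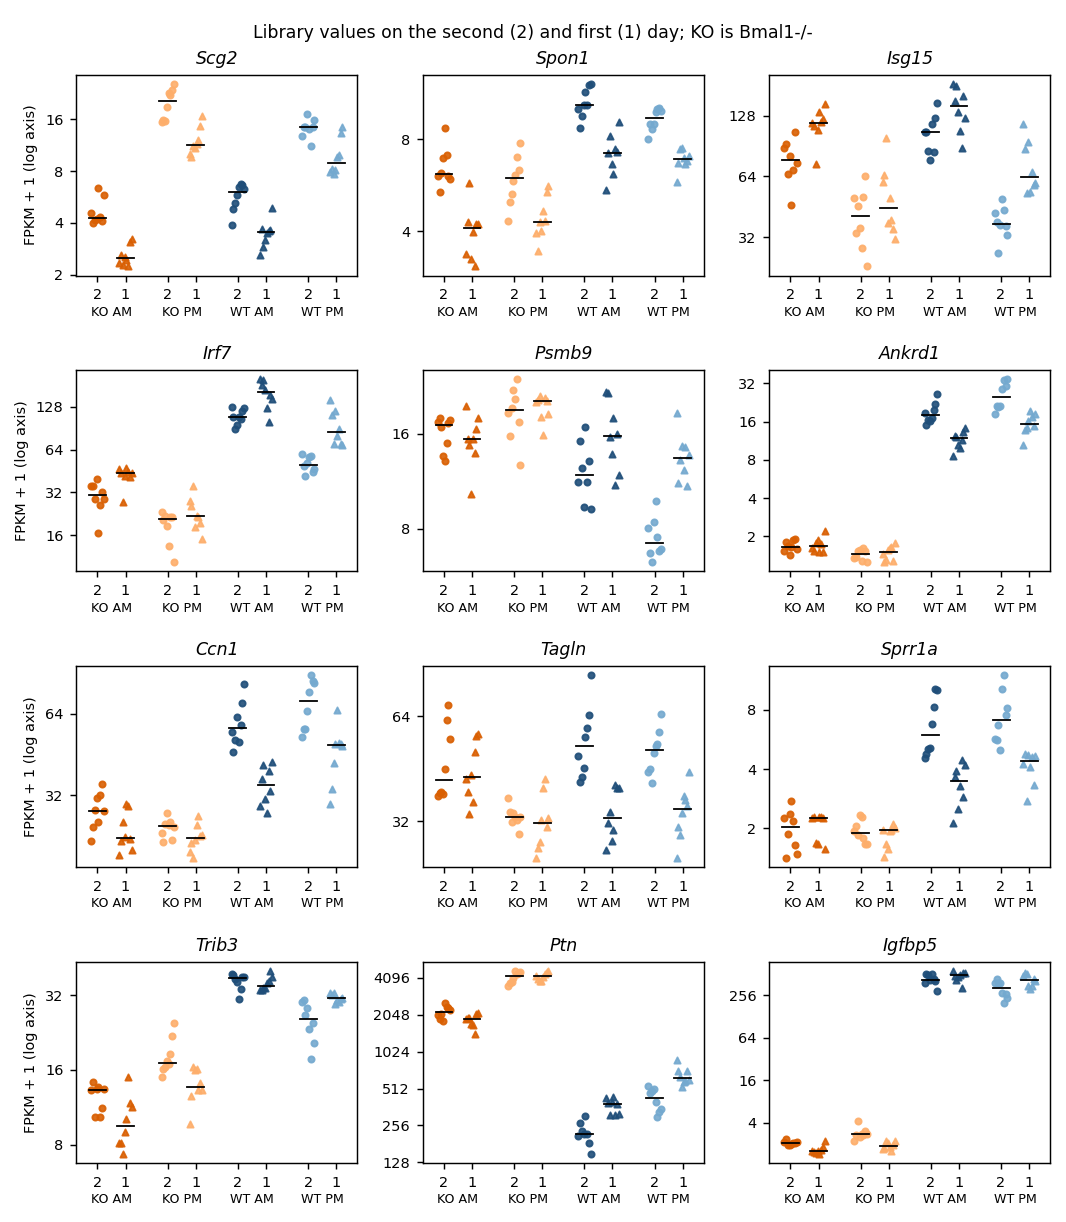
FPKM + 1 (log axis) of 12 genes in each of the 64 libraries, by genotype and course, with the second day (circles) left of the first day (triangles) and the median as a bar; KO is Bmal1-/-. Scg2 is higher on the second day in all 4 courses, and Ankrd1, Ccn1 and Tagln are higher on the second day in both WT courses.

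Interferon response genes fell in both genotypes. Interferons bind surface receptors and switch on antiviral genes, many of them by a promoter element called the ISRE. Of 26 members, all tested, 10 fell in Bmal1-/- cells, beside 3.94% of all genes, and 23 fell in WT cells, beside 13.0%. The list's median change was -0.24 in Bmal1-/- and -0.43 in WT cells. By course it was -0.29 in Bmal1-/- AM, -0.12 in Bmal1-/- PM, -0.28 in WT AM and -0.56 in WT PM. The list mean was lower on the second day in 12 of 16 Bmal1-/- pairs, which ranged over -0.90 to 0.43, and in 14 of 16 WT pairs, which ranged over -0.92 to 0.12. The count in Bmal1-/- cells was 6 without the pair block, 3 without clock label 12, 6 without clock label 21 and 18 with a linear time term, and in PM alone limma passed 0, with 7 lower at an unadjusted p under 0.05.

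Isg15, a ubiquitin-like protein attached to other proteins after interferon, had 44.9, 76.5 and 105 FPKM (lowest, median, highest) on the second day in Bmal1-/- AM, against 72.6, 117 and 145 FPKM on the first day. Bmal1-/- PM had 21.9, 39.6 and 63.5 FPKM, against 30.4, 43.4 and 98.2 FPKM, and the days overlapped in both of these courses. WT AM had 76.5, 105 and 147 FPKM on the second day, against 87.5, 141 and 183 FPKM on the first day, and WT PM had 25.6, 36.2 and 48.4 FPKM, against 52.1, 62.4 and 115 FPKM. Every second-day library lay below every first-day library in WT PM, while the days overlapped in WT AM. Isg15 fell by 0.45 ± 0.13 in Bmal1-/- cells (adjusted p 0.0208) and by 0.66 ± 0.13 in WT cells (adjusted p 0.000212). The Bmal1-/- fall did not pass without clock label 03, 12 or 21. Irf7, the transcription factor that amplifies interferon production, had medians of 29.5 and 42.8 FPKM on the second and the first day in Bmal1-/- AM, 19.9 and 20.8 FPKM in Bmal1-/- PM, 107 and 160 FPKM in WT AM, and 49.1 and 83.6 FPKM in WT PM. It fell by 0.40 ± 0.10 in Bmal1-/- cells and 0.67 ± 0.10 in WT cells. Bst2, a protein that holds budding viruses at the membrane, fell by 0.40 ± 0.07 and 0.47 ± 0.07. Outside the list, Zbp1, a sensor of Z-form nucleic acids, fell by 0.45 ± 0.09 and 0.68 ± 0.09.

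The promoters of Isg15 and Bst2 are shown as list members that fell in both genotypes and that carry the ISRE letters, which are GAAA, any 2 bases and GAAA again, or the reverse complement. The stretches are RefSeq sequences on GRCm38.p6 with overlapping matches in capitals. The capitals end 57 bases before the start in Isg15, whose stretch is chr4:156200819-156200944 on the minus strand, and 115 bases before it in Bst2, whose stretch is chr8:71537527-71537656 on the minus strand.
Isg15: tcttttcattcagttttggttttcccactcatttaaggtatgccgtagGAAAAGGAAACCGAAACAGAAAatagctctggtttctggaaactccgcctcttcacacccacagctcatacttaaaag
Bst2: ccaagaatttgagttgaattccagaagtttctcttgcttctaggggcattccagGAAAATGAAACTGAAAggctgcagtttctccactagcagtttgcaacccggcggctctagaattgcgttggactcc
Of the 20 list members with a promoter entry, 8 held a match within 250 bases before the start, as did 3.2% of the 9234 tested genes.

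Genes of antigen presentation on MHC class I fell in WT cells. Of 14 members, which include Psmb8 and Psmb9 of the interferon list, 2 fell in Bmal1-/- cells and 12 in WT cells, beside 3.94% and 13.0% of all genes, with medians of -0.02 and -0.28. The difference between genotypes passed for 10 of them, all positive (more negative in WT), beside 5.74% of all genes, and for 6 of the interferon genes, also all positive. In AM alone limma passed 0 differences in either list, with 7 positive in the MHC list and 2 in the interferon list at an unadjusted p under 0.05. Psmb9, a subunit of the immunoproteasome that cuts peptides for MHC class I, had medians of 16 and 14.4 FPKM on the second and the first day in Bmal1-/- AM, 18 and 19.3 FPKM in Bmal1-/- PM, 10.9 and 14.8 FPKM in WT AM, and 6.21 and 12.4 FPKM in WT PM. WT PM was the course without overlap. The change was 0.00 ± 0.07 in Bmal1-/- cells and -0.62 ± 0.07 in WT cells, and the difference passed at 0.62 ± 0.10 (adjusted p 6.87e-05). H2-T23, a nonclassical class I chain, fell in both genotypes, by 0.19 ± 0.04 in Bmal1-/- cells and by 0.44 ± 0.04 in every WT pair. H2-Q4, another class I chain, was at 0.09 ± 0.06 in Bmal1-/- cells and fell by 0.46 ± 0.06 in WT cells. Class I genes are close copies, so the division of their reads is uncertain.

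**Figure D3:**
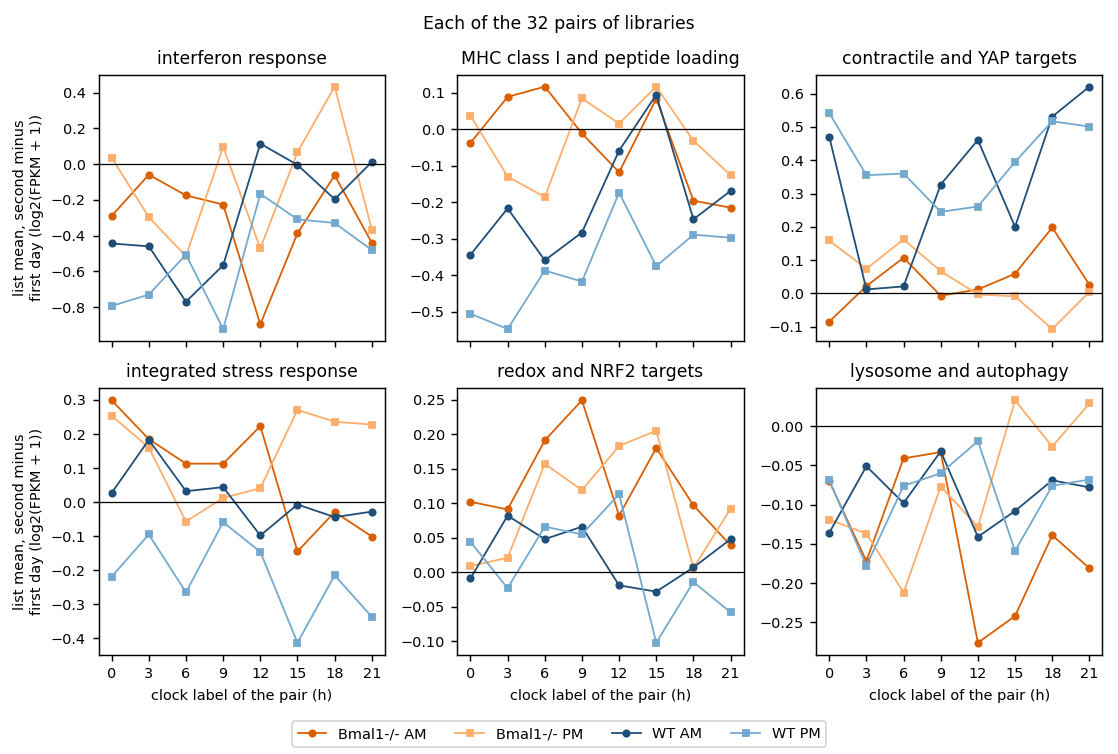
Mean change of 6 gene lists in each of the 32 pairs, as second minus first day on log2(FPKM + 1), by clock label of the pair (h) and by course. The contractile and YAP list lies above 0 in 16 of 16 WT pairs, and the interferon list below 0 in 12 of 16 Bmal1-/- and 14 of 16 WT pairs.

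Further WT falls past 1.5-fold were seen in other genes. Ptn, the heparin-binding growth factor pleiotrophin, had medians of 2160 and 1900 FPKM on the second and the first day in Bmal1-/- AM and 4220 and 4200 FPKM in Bmal1-/- PM. In WT AM they were 218 and 383 FPKM, and in WT PM 430 and 618 FPKM. Its level in Bmal1-/- cells was several times that in WT cells on both days. The change was 0.10 ± 0.06 in Bmal1-/- cells and -0.70 ± 0.06 in WT cells, where every pair was lower. Sned1, a matrix glycoprotein, had WT medians of 7.36 and 13.1 FPKM in AM and 17.1 and 31 FPKM in PM, with changes of 0.06 ± 0.11 in Bmal1-/- cells and -0.80 ± 0.11 in WT cells. Slpi, a secreted inhibitor of elastase, fell by 0.85 ± 0.12 in WT cells, and Hopx, a small homeodomain protein, by 0.67 ± 0.06.

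Susd2, a membrane protein with a sushi domain, and the next 2 genes were chosen after their values were seen. In Bmal1-/- cells Susd2 did not overlap between the days in either course, with medians of 4.68 and 2.94 FPKM in AM and 4.44 and 2.71 FPKM in PM, and rose by 0.55 ± 0.05, against 0.09 ± 0.05 in WT cells. Apoe, the lipid carrier apolipoprotein E, rose by 0.49 ± 0.07 in Bmal1-/- cells and 0.25 ± 0.07 in WT cells. Ccn3, a relative of Ccn1 and Ccn2, had medians of 57.1 and 74.5 FPKM in Bmal1-/- AM and 69.9 and 109 FPKM in Bmal1-/- PM, with no overlap in either. It fell by 0.54 ± 0.04 in Bmal1-/- cells and rose by 0.12 ± 0.04 in WT cells, and the difference passed at -0.66 ± 0.06 (adjusted p 9.67e-08). The 2 genes past 1.5-fold downward in Bmal1-/- cells, Gm24195 and Gm5812, are predicted or small RNA genes.

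Over AM and PM together, genes of the integrated stress response and of amino acid supply moved apart between genotypes. In this response ATF4 switches on amino acid transporters, tRNA synthetases and genes such as Asns, Trib3 and Atf5 when stress slows translation. Of 19 stress response genes tested, 8 rose and 1 fell in Bmal1-/- cells, and 1 rose and 7 fell in WT cells, with medians of 0.12 and -0.08. Of all genes, 4.3% rose and 3.94% fell in Bmal1-/- cells and 10.6% rose and 13.0% fell in WT cells. The difference passed for 10, all positive, and in AM alone limma passed 0, with 4 positive at an unadjusted p under 0.05. The WT median was 0.06 in AM and -0.22 in PM. The count of rises in Bmal1-/- cells was 4 without clock label 00, 5 without label 03 or 12, 1 in AM alone and 14 with a linear time term. The count of falls in WT cells was 2 in AM alone, 11 in PM alone, 4 without clock label 18 and 3 without label 21.

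Trib3, a pseudokinase induced by ATF4, had 9.3, 12.3 and 13.3 FPKM on the second day in Bmal1-/- AM, against 6.34, 8.53 and 14 FPKM on the first day, and 14, 16.1 and 23.7 FPKM in Bmal1-/- PM, against 8.7, 12.7 and 15.4 FPKM. WT AM had 29.8, 36.4 and 37.9 FPKM, against 32.4, 33.9 and 39 FPKM, and WT PM had 16.6, 24.7 and 29.4 FPKM, against 28.5, 30 and 31.8 FPKM. The days overlapped in all 4 courses. The change was 0.37 ± 0.08 in Bmal1-/- cells and -0.15 ± 0.08 in WT cells (adjusted p 0.148), and the difference passed at 0.52 ± 0.11 (adjusted p 0.00147). Asns, asparagine synthetase, rose by 0.29 ± 0.07 in Bmal1-/- cells and was at -0.03 ± 0.07 in WT cells. Atf5, a transcription factor of the same response, rose by 0.21 ± 0.05 in Bmal1-/- cells and fell by 0.14 ± 0.05 in WT cells. Of 21 amino acid transport and tRNA synthetase genes, 10 rose in Bmal1-/- cells, beside 4.3% of all genes, while 2 rose and 3 fell in WT cells, near the 10.6% and 13.0% of all genes. The difference passed for 8, all positive, beside 5.74% of all genes, and for 1 in AM alone and 10 in PM alone. Slc7a5, a transporter of large neutral amino acids, rose by 0.25 ± 0.05 in Bmal1-/- cells and was at -0.05 ± 0.05 in WT cells. Of 20 unfolded protein response genes, 5 rose in Bmal1-/- cells, Hspa5, the chaperone BiP, by 0.13 ± 0.03, beside 4.3% of all genes. In WT cells 2 rose and 3 fell, near the 10.6% and 13.0% of all genes.

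Of 25 redox and NRF2 target genes, 11 rose in Bmal1-/- cells, beside 4.3% of all genes, and 4 rose and 4 fell in WT cells, beside 10.6% and 13.0%. The list had medians of 0.10 in Bmal1-/- and 0.03 in WT cells, and the Bmal1-/- count was 7 in AM alone, 4 in PM alone and 17 with a linear time term. NRF2 switches on glutathione and quinone enzymes under oxidative stress. The list mean was higher in 16 of 16 Bmal1-/- pairs, by 0.01 to 0.25, and in 9 of 16 WT pairs. Gsta4, a glutathione transferase, rose by 0.35 ± 0.08 in Bmal1-/- cells and was at -0.11 ± 0.08 in WT cells, and Nqo1, a quinone reductase, rose by 0.16 ± 0.05 in Bmal1-/- cells and fell by 0.18 ± 0.05 in WT cells. Gpx3, the secreted glutathione peroxidase, had medians of 250 and 226 FPKM on the second and the first day in Bmal1-/- AM and 208 and 212 FPKM in Bmal1-/- PM. In WT AM they were 1810 and 1190 FPKM and in WT PM 1180 and 971 FPKM. It was at 0.06 ± 0.03 in Bmal1-/- cells and rose by 0.41 ± 0.03 in every WT pair.

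Collagen genes moved little, with calls in both directions. Of 20, 5 rose and 1 fell in Bmal1-/- cells, and 2 rose and 5 fell in WT cells, with medians of 0.03 and -0.09. Of all genes, 4.3% and 3.94% rose and fell in Bmal1-/- cells and 10.6% and 13.0% in WT cells. In WT AM alone 7 collagen genes fell and 0 rose in limma, with 0 higher at an unadjusted p under 0.05, whereas in WT PM alone 3 rose and 1 fell. Col1a2, a chain of type I collagen, rose by 0.22 ± 0.03 in Bmal1-/- cells and was at -0.05 ± 0.03 in WT cells, and Col3a1, type III collagen, rose by 0.18 ± 0.05 in Bmal1-/- cells and was at -0.16 ± 0.05 in WT cells, which passed. Matrix glycoproteins and proteoglycans held 7 rises and 1 fall in Bmal1-/- cells and 7 rises and 6 falls in WT cells among 25 tested, the WT rises and falls being 4 and 5 in AM alone and 11 and 4 in PM alone. Of 11 complement genes, 4 rose in Bmal1-/- cells, among them C7 by 0.36 ± 0.07 and C3 by 0.29 ± 0.06, and 1 rose and 2 fell in WT cells. Among insulin-like growth factor genes, Igf1 was at 0.06 ± 0.05 in Bmal1-/- cells and fell by 0.33 ± 0.05 in WT cells. Igfbp4, which binds IGF, was at 0.08 ± 0.05 and fell by 0.39 ± 0.05, and Pappa, the protease that cuts it, was at 0.02 ± 0.03 and rose by 0.39 ± 0.03 in every WT pair.

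**Figure D4:**
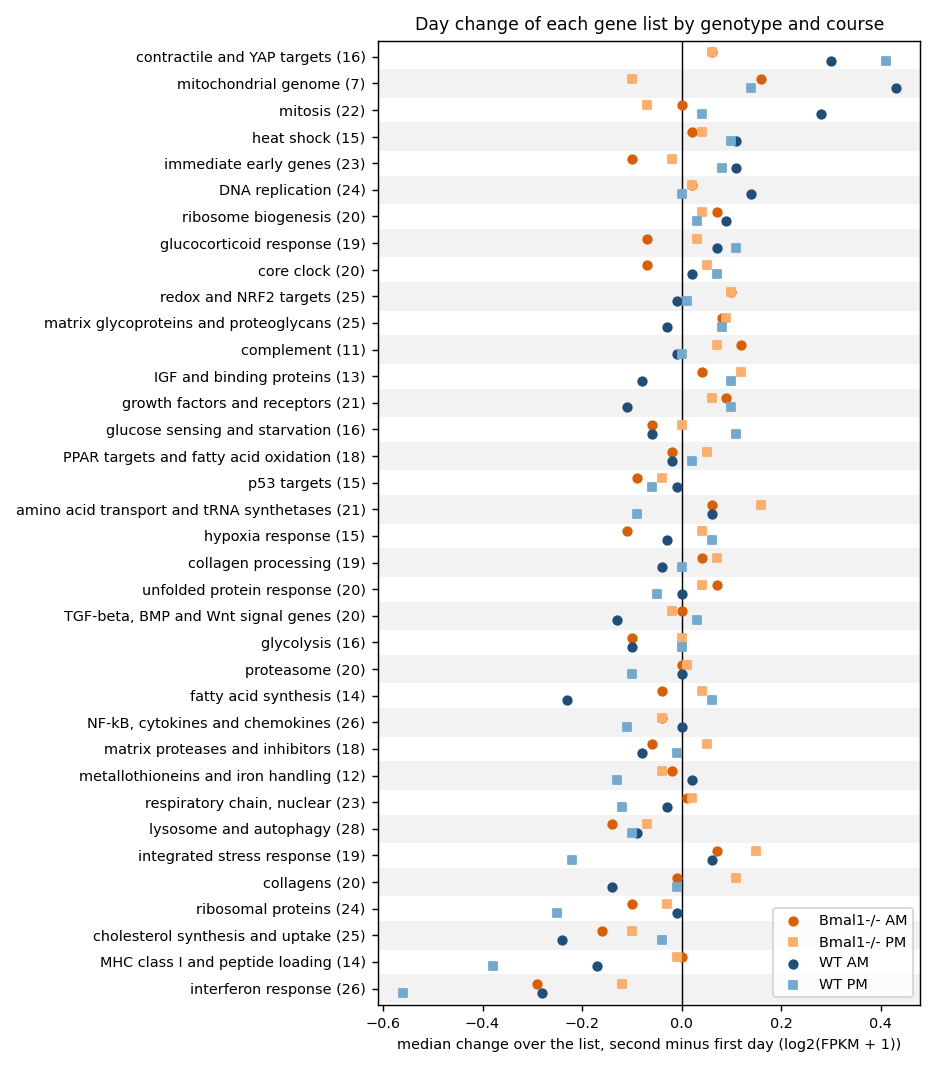
Median change of 36 gene lists (number of genes tested in brackets) as second minus first day on log2(FPKM + 1), in AM (circles) and PM (squares) of each genotype. In WT the contractile and YAP list lies at 0.30 in AM and 0.41 in PM, and the interferon list at -0.28 and -0.56.

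Lysosome and cholesterol genes were lower on the second day in both genotypes. Of 28 lysosome and autophagy genes, 13 fell in Bmal1-/- cells, and 12 fell and 1 rose in WT cells, with medians of -0.11 and -0.08. Of all genes, 3.94% fell in Bmal1-/- cells, and 13.0% fell and 10.6% rose in WT cells. The Bmal1-/- count was 16 in AM alone and 6 in PM alone. The list mean was lower in 14 of 16 Bmal1-/- pairs and in 16 of 16 WT pairs. Ctsa, a lysosomal carboxypeptidase, fell by 0.21 ± 0.03 in Bmal1-/- cells and 0.22 ± 0.03 in WT cells, lower in 16 and 15 of 16 pairs. Gpnmb, a glycoprotein of lysosomes, was the member that rose in WT cells, by 0.40 ± 0.07. Of 25 genes of cholesterol synthesis and uptake, which SREBP2 switches on when sterols run low, 6 fell in Bmal1-/- cells and 13 in WT cells, beside 3.94% and 13.0% of all genes. In PM alone limma passed 0 as lower in either genotype, with 6 and 5 lower at an unadjusted p under 0.05, and passed 2 as higher in WT cells. Insig1, which holds SREBP back, fell by 0.25 ± 0.05 and 0.20 ± 0.05, and Mvd, an enzyme of the mevalonate pathway, by 0.19 ± 0.04 and 0.25 ± 0.04.

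The dexamethasone pulse came before the first harvest, and glucocorticoid response genes split. Beside them, 4.3% of all genes rose and 3.94% fell in Bmal1-/- cells, and 10.6% rose and 13.0% fell in WT cells. Of 19 tested, 2 rose and 4 fell in Bmal1-/- cells, and 6 rose and 4 fell in WT cells. Zbtb16, a transcription factor induced by glucocorticoids, rose by 0.29 ± 0.05 and 0.21 ± 0.05, while Mt1, a metallothionein that binds zinc and copper, fell by 0.24 ± 0.04 and 0.23 ± 0.04. Dusp1, a phosphatase that switches off MAP kinases, had medians of 16.1 and 20.1 FPKM on the second and the first day in Bmal1-/- AM, 11.4 and 13.3 FPKM in Bmal1-/- PM, 22.6 and 18.1 FPKM in WT AM, and 32.5 and 26.1 FPKM in WT PM. It fell by 0.24 ± 0.05 in Bmal1-/- cells and rose by 0.33 ± 0.05 in every WT pair, and the difference passed at -0.57 ± 0.07 (adjusted p 1.32e-06). Dusp1 is also an immediate early gene, a class that answers serum and growth factors within minutes. Of 23 such genes, 2 rose and 6 fell in Bmal1-/- cells, and 11 rose and 2 fell in WT cells, the falls under the 13.0% of all genes. The Bmal1-/- falls were 5 in AM alone and 1 in PM alone, and the WT rises 10 and 5. Junb, a subunit of AP-1, fell by 0.19 ± 0.04 and 0.15 ± 0.04.

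In the growth and energy lists most calls in AM and PM were in WT cells. Of all genes, 10.6% rose and 13.0% fell in WT cells, against 4.3% and 3.94% in Bmal1-/- cells. Calls were thus more frequent in WT cells over all genes too. Of 22 mitosis genes limma passed 0 in Bmal1-/- cells, with 0 also at an unadjusted p under 0.05, and 7 rose in WT cells. Ccna2, cyclin A2, rose by 0.29 ± 0.06 and the proliferation marker Mki67 by 0.27 ± 0.06 in WT cells. The WT median of the list was 0.28 in AM and 0.04 in PM, limma passed 0 in PM alone with 2 higher at an unadjusted p under 0.05, and the count was 4 without clock label 00 or 12. Of 15 heat shock genes limma passed 0 in Bmal1-/- cells (2 higher and 1 lower at an unadjusted p under 0.05), and 9 rose and 1 fell in WT cells. Of 7 mitochondrial genome transcripts tested limma passed 0 in Bmal1-/- cells, with 0 at an unadjusted p under 0.05, and 5 rose in WT cells, mt-Nd5 of complex I by 0.39 ± 0.08. Of 23 nuclear genes of the respiratory chain, limma passed 0 in Bmal1-/- cells, with 4 higher and 1 lower at an unadjusted p under 0.05, and 8 fell in WT cells, with medians of 0.01 and -0.08. Cox5b, a subunit of cytochrome c oxidase, fell by 0.26 ± 0.04 in WT cells, and Sdhc, a membrane subunit of complex II, by 0.16 ± 0.04. The WT count of falls was 1 in AM alone, 9 in PM alone (where 2 rose), 5 without clock label 15 and 4 with a linear time term. The mitochondrial share of FPKM had medians of 1.31% and 1.13% on the second and the first day in Bmal1-/- AM, 1.58% and 1.59% in Bmal1-/- PM, 3.01% and 2.61% in WT AM, and 2.56% and 2.26% in WT PM. Of 24 ribosomal protein genes, 2 fell in Bmal1-/- cells and 9 in WT cells, where the median was -0.01 in AM and -0.25 in PM and the count was 2 with a linear time term and 5 without clock label 15. In WT AM alone limma passed 0 ribosomal protein genes, with 1 lower at an unadjusted p under 0.05, and in WT PM alone 17 fell. Processed copies of these genes make their reads uncertain.

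The clock genes changed little in mean level. Of 20 tested, 1 fell in Bmal1-/- cells, and 6 rose and 2 fell in WT cells. The falls were near the 3.94% and 13.0% of all genes, and 10.6% of all genes rose in WT cells. In WT PM alone 5 clock genes rose, and in WT AM alone limma passed 0 as higher, with 3 at an unadjusted p under 0.05. Bhlhe40, a repressor that feeds back on the clock, fell by 0.22 ± 0.05 in Bmal1-/- cells and 0.22 ± 0.05 in WT cells. In WT cells Arntl rose by 0.12 ± 0.04, its partner Clock by 0.13 ± 0.03, the activator Rora by 0.15 ± 0.03, the repressors Nr1d1 by 0.14 ± 0.04 and Nr1d2 by 0.14 ± 0.05, and Per1 by 0.15 ± 0.05. Dbp, a transcription factor driven by BMAL1 and CLOCK, fell by 0.13 ± 0.05. The Per1 and Nr1d1 values did not pass without the pair block. The difference between genotypes passed for Nr1d1, at -0.27 ± 0.06.

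The swing of the clock genes within a day was narrower on the second day for most of them in WT cells. The highest minus the lowest library was smaller on the second day for 7 of 20 genes in Bmal1-/- AM and 10 of 20 in Bmal1-/- PM, with medians of 0.36 and 0.30 (log2, second and first day) in AM and 0.38 and 0.40 in PM. It was smaller for 14 of 20 in WT AM and 18 of 20 in WT PM, with medians of 0.60 and 0.80 in AM and 0.57 and 0.82 in PM. Without the pair CT12 and CT36 it was smaller for 15 of 20 in WT AM. Dbp swung over 1.41 on the second day and 2.28 on the first day in WT AM, and over 1.55 and 1.70 in WT PM, whereas Per2 swung over 1.8 on the second day and 0.98 on the first day in WT AM. These ranges rest on 8 libraries per day and were not tested.

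**Figure D5:**
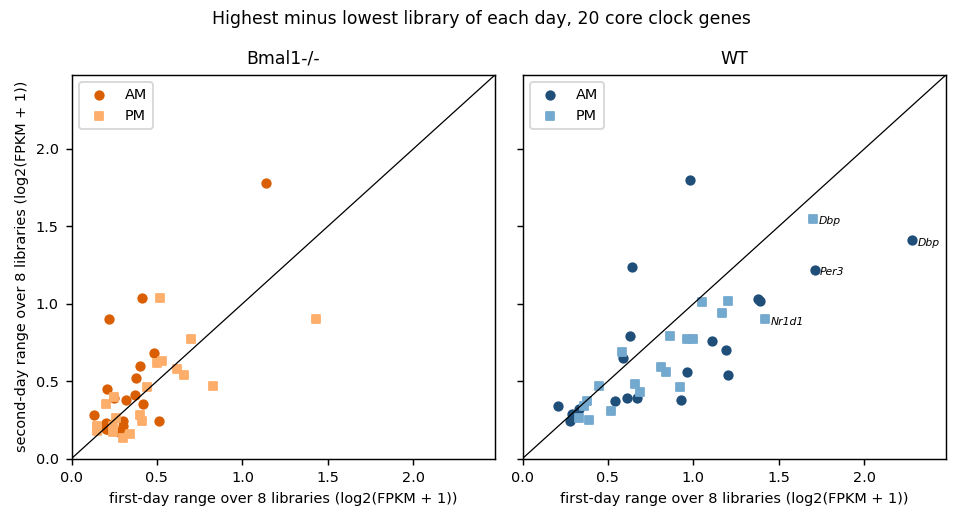
Highest minus lowest library within a day (log2(FPKM + 1)) for 20 core clock genes, second day (vertical) against first day (horizontal), in AM (circles) and PM (squares) of Bmal1-/- and WT. Below the line of equality lie 7 and 10 of 20 genes in Bmal1-/- AM and PM, and 14 and 18 of 20 in WT AM and PM.

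The counts of the other lists stand beside 4.3% of all genes that rose and 3.94% that fell in Bmal1-/- cells, and 10.6% and 13.0% in WT cells. Of 26 NF-kB, cytokine and chemokine genes, 1 rose and 7 fell in Bmal1-/- cells, and 4 rose and 8 fell in WT cells. Of 18 matrix proteases and inhibitors, 4 rose and 4 fell in Bmal1-/- cells, and 4 rose and 6 fell in WT cells. Of 20 TGF-beta, BMP and Wnt genes, 3 rose and 4 fell in each genotype, though the shares of all genes differ between the genotypes. The p53 targets, which answer DNA damage, gave 4 falls among 15 genes in Bmal1-/- cells, and 3 rises and 4 falls in WT cells. Ribosome biogenesis genes gave 2 rises among 20 in Bmal1-/- cells and 6 in WT cells, with no fall in either. Glycolysis genes, which split glucose, gave 1 fall among 16 in Bmal1-/- cells and 2 in WT cells. Hypoxia response genes gave 2 rises among 15 in Bmal1-/- cells, and 4 rises and 3 falls in WT cells. DNA replication genes gave 1 rise and 1 fall among 24 in Bmal1-/- cells and 5 rises in WT cells. Fatty acid synthesis genes gave 3 rises and 3 falls among 14 in Bmal1-/- cells and 2 rises and 4 falls in WT cells. PPAR targets and fatty acid oxidation genes gave 2 rises and 3 falls among 18 in Bmal1-/- cells and 2 rises in WT cells. Glucose sensing and starvation genes gave 4 rises and 4 falls among 16 in Bmal1-/- cells and 5 rises and 1 fall in WT cells. Metallothionein and iron genes gave 1 rise and 2 falls among 12 in Bmal1-/- cells and 5 falls in WT cells. Collagen processing genes gave 3 rises among 19 in Bmal1-/- cells and 3 rises and 4 falls in WT cells. Genes of IGF and its binding proteins gave 4 rises among 13 in Bmal1-/- cells and 3 rises and 4 falls in WT cells. Growth factors and receptors gave 4 rises and 2 falls among 21 in Bmal1-/- cells and 6 rises and 3 falls in WT cells. Proteasome genes gave 2 rises among 20 in Bmal1-/- cells and 1 rise and 3 falls in WT cells. The fibroblast markers gave 6 rises among 14 in Bmal1-/- cells and 2 rises and 3 falls in WT cells.

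Markers of fibroblasts and of other cell types were summed per library. The 14 fibroblast markers summed to 18500 to 23800 FPKM on the second day and 16500 to 23100 FPKM on the first day in Bmal1-/- cells, and to 14400 to 17800 and 14500 to 19700 FPKM in WT cells. Of 10 markers per other cell type, 2 keratinocyte, 2 endothelial, 3 macrophage, 4 adipocyte, 2 muscle, 3 melanocyte and Schwann, and 4 cartilage, bone and tendon markers averaged 1 FPKM or more. Keratinocyte markers summed to 1.72 to 2.72 FPKM on the second day and 1.56 to 3.45 FPKM on the first day in Bmal1-/- cells, and to 3.1 to 6.34 and 2.9 to 6.4 FPKM in WT cells, with Krt1 at 0 in all. Endothelial markers summed to 1.24 to 2.88 and 1.28 to 2.47 FPKM in Bmal1-/- cells and to 5.05 to 6.58 and 3.62 to 5.51 FPKM in WT cells, with Cldn5 at 0 in all, and Kdr, a receptor for VEGF, rose in WT cells by 0.29 ± 0.05. Macrophage markers summed to 11.2 to 21.4 and 10.0 to 21.1 FPKM in Bmal1-/- cells and to 8.42 to 15.6 and 8.58 to 16.3 FPKM in WT cells, with Tyrobp at 0 in all WT libraries. Muscle markers summed to 7.73 to 25.5 and 5.78 to 20.9 FPKM in Bmal1-/- cells and to 2.51 to 13.0 and 2.11 to 20.9 FPKM in WT cells, with Myod1 at 0 in all. Adipocyte markers summed to 168 to 262 and 137 to 213 FPKM in Bmal1-/- cells and to 66.3 to 148 and 65.9 to 126 FPKM in WT cells. Melanocyte and Schwann markers summed to 5.32 to 8.81 and 5.91 to 9.19 FPKM in Bmal1-/- cells and to 29.6 to 42.7 and 32.2 to 47.0 FPKM in WT cells. Cartilage, bone and tendon markers summed to 19.4 to 30.5 and 23.1 to 32.1 FPKM in Bmal1-/- cells and to 201 to 291 and 214 to 374 FPKM in WT cells. The part of these markers in the day changes was not tested.

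The day change itself differed between genotypes, as Bmal1-/- minus WT, for 764 genes as positive (5.74%) and 523 as negative (3.93%), with 16 and 12 of them past 1.5-fold (0.12% and 0.0902%). Several of these genes had very different levels in the genotypes. Igfbp5, an IGF binding protein, had medians of 1.05 and 0.597 FPKM on the second and the first day in Bmal1-/- AM, 1.72 and 0.848 FPKM in Bmal1-/- PM, 427 and 491 FPKM in WT AM, and 326 and 422 FPKM in WT PM. It rose by 0.45 ± 0.07 in Bmal1-/- cells and fell by 0.29 ± 0.07 in WT cells. Inhbb, the beta B chain of activin and inhibin, had medians of 12.5 and 16.6 FPKM in Bmal1-/- AM, 11 and 14.4 FPKM in Bmal1-/- PM, 3.02 and 2.29 FPKM in WT AM, and 7.09 and 4.45 FPKM in WT PM. It fell by 0.32 ± 0.07 in Bmal1-/- cells and rose by 0.46 ± 0.07 in WT cells. Hsd11b1, which regenerates active glucocorticoid in cells, was at -0.22 ± 0.08 in Bmal1-/- cells and rose by 0.55 ± 0.08 in WT cells. Il1rn, the interleukin 1 receptor antagonist, was at 0.16 ± 0.13 and fell by 0.72 ± 0.13, and Sfrp2, a secreted Wnt modulator, was at 0.13 ± 0.12 and fell by 0.56 ± 0.12. Of 84 genes that passed in both genotypes with opposite signs, 68 were higher on the second day in Bmal1-/- cells and lower in WT cells.

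The courses at 37 °C, 48 libraries that AM and PM do not share, gave a separate reading of the second minus first day change. The titles of the AM and PM libraries give no temperature, and the sampling times of the 37 °C courses differ from theirs. Of the 573 higher and 524 lower genes in Bmal1-/- cells, 89.9% and 92.2% had the same sign there, against 65.0% of all genes tested. Of the 1406 and 1727 genes in WT cells, 72.5% and 82.4% did, against 61.7%. Scg2 was at 1.09 in Bmal1-/- and 1.15 in WT cells. The interferon list had medians of -0.30 and -0.44, with 19 and 24 of 26 genes lower at an adjusted p under 0.05, and the contractile and YAP list had medians of -0.07 and 0.21. The integrated stress response had medians of 0.01 in Bmal1-/- and 0.13 in WT cells, an order opposite to that in AM and PM. Amino acid transport and tRNA synthetase genes had 0.07 and 0.10. Collagens had medians of 0.34 and -0.15. Redox and NRF2 targets had 0.03 and 0.08, with 3 higher and 4 lower in Bmal1-/- and 6 higher in WT cells. All 7 mitochondrial genome transcripts were higher in Bmal1-/- and 3 in WT cells, with medians of 0.35 and 0.22. Mitosis genes had medians of -0.12 and 0.12, with 7 lower in Bmal1-/- and 2 higher in WT cells. At the same p, 1987 of all 13311 genes were higher and 2765 lower in Bmal1-/- cells, and 1039 and 1727 in WT cells. At 32 °C, 75.9% of the higher and 64.9% of the lower genes in Bmal1-/- cells had the same sign, against 55.6% of all genes, and 69.8% and 70.2% in WT cells, against 57.8%. The integrated stress response there had medians of -0.03 in Bmal1-/- and 0.36 in WT cells, with 0 and 16 of 19 genes higher. The amino acid list had -0.02 and 0.28, with 3 and 19 of 21 genes higher. Of all 13311 genes, 1464 and 2216 were higher. At 27 °C 252 of 573 higher and 256 of 524 lower genes in Bmal1-/- cells had the same sign, against 48.3% of all genes. The higher genes thus kept their sign less often than all genes did, and the lower genes about as often. Taken as a set, the genes that passed in Bmal1-/- cells therefore did not keep their sign at 27 °C more often than all genes did. In WT cells 67.5% and 56.6% had the same sign, against 55.6%, so the lower genes were close to all genes there too. The interferon list fell at 27 °C in both genotypes, with medians of -0.24 in Bmal1-/- and -0.67 in WT cells. Of its 26 genes, 14 and 23 were lower, beside 910 and 1619 of all 13311 genes. Mitosis genes had WT medians of -0.12 at 32 °C and -0.81 at 27 °C, opposite in sign to AM and PM. Of 22, 6 and 22 were lower in WT cells, beside 2310 and 1619 of all genes.

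The CT48 library of each course can be set against CT24 at the same clock label. Of the genes that passed as higher and lower in Bmal1-/- cells, 60.4% and 46.6% moved further in the same direction in both AM and PM, against 30.2% and 26.6% of all genes tested. In WT cells 422 of 1406 and 470 of 1727 did, against 32.1% and 24.6% of all genes. The share was thus below that of all genes for the higher genes and a little above it for the lower genes. The median change from CT24 to CT48 was -0.02 and 0.04 (log2) in these WT genes, opposite in sign to the day change. As a set they did not move further. In Bmal1-/- cells the median was 0.1 and -0.07. Among the 17 and 23 WT genes past 1.5-fold the shares were 70.6% and 52.2%. Tagln read 82.2 FPKM at CT48 and 48.3 FPKM at CT24 in WT AM, and 75.6 and 43.3 FPKM in WT PM. Isg15 read 51.7 and 87.2 FPKM in Bmal1-/- AM, 26.1 and 49 FPKM in Bmal1-/- PM, 101 and 105 FPKM in WT AM, and 49.9 and 41 FPKM in WT PM. It was thus lower at CT48 in 3 courses and higher in WT PM. CT24 also enters the day comparison, and each of these readings is a single library per course.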

How the data were processed

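Poly(A) RNA was enriched from total RNA of mouse skin fibroblasts and made into stranded libraries. The authors deposited FPKM per gene, and per the submitters' processing notes TopHat2 2.1.0, TopHat and Cuffdiff were used with GRCm38. The sources used here do not give the strand setting of the counting. FPKM values carry no counts, so no count test was used, and depth was estimated from the FPKM of single reads in 1357 genes. Values were taken as log2(FPKM + 1), and a gene was tested where its average over the 64 libraries reached 1 FPKM. Symbols came from GENCODE M21, which matched 47217 of 47631 IDs, and promoters from RefSeq. limma 3.58.1 in R 4.3.3 fitted a day term for each course with the pair of libraries as a block and averaged AM and PM within each genotype. P-values were adjusted by Benjamini and Hochberg, and SE is the standard error of the change. The fit was checked on simulated data with independent noise. That setting lacks the dependence between neighbouring pairs, so it does not test the p-values under such dependence.

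Genes were named by a rule. It took the 10 largest rises and falls past 1.5-fold in each genotype that moved the same way in at least 14 of 16 pairs, the largest shared changes, and the 6 largest differences between genotypes on each side. It also took up to 4 passing members of each of 44 gene lists and all core clock genes. Predicted genes and small RNAs were left out of the naming but not of the counts. A few genes that the rule named are not reported here. The members, lists and rule were chosen with earlier results of these data known. The 37, 32 and 27 °C courses were fitted alone with the same pairing, the 27 °C course without clock label 14. Pairs share a clock label, not a stated culture. The alternatives tried were no pair block, another pseudocount, no filter, median-of-ratios scaling, a linear time term, each course alone, other fold limits and each clock label left out.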

Additional observations from a re-analysis of the deposited data

Results flagged for a closer look

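For 23 genes shown by library, the 8 libraries of each of 184 groups of 1 genotype, course and day were searched for a library far from the rest. Chance flags about 1 in 20 groups, and 10 were found. On the second day the high libraries were Igfbp5 at 3.28 FPKM in Bmal1-/- PM at CT30, Sned1 at 82.3 FPKM in Bmal1-/- PM at CT33, and Ccn2 at 16.6 FPKM and Msln at 4.82 FPKM, both in WT AM at CT45. Ccn3 was low, at 55.6 FPKM, in WT PM at CT39. On the first day the high libraries were Arntl at 7.25 FPKM in Bmal1-/- AM at CT00, Scg2 at 3.91 FPKM in WT AM at CT21, Spon1 at 4.74 FPKM in Bmal1-/- AM at CT06 and Ccn3 at 132 FPKM in Bmal1-/- PM at CT00. Irf7 was low there, at 26.4 FPKM in Bmal1-/- AM at CT06.

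The day change differed between genotypes (Bmal1-/- minus WT, log2, limma's adjusted p under 0.05) for the 12 genes with the largest called differences. On the positive side were Il1rn (0.87), Sned1 (0.86), Ptn (0.80), Noxo1 (0.78), Igfbp5 (0.74) and Sfrp2 (0.69). On the negative side were Sprr1a (-0.89), Ccn2 (-0.79), Inhbb (-0.78), Hsd11b1 (-0.77), Ankrd1 (-0.76) and Msln (-0.75). The Bmal1-/- medians of Ankrd1 and Msln lay under the pseudocount of 1 FPKM. So did those of Sprr1a in Bmal1-/- PM, at 0.892 and 0.962 FPKM on the second and the first day. The first-day medians of Igfbp5 in Bmal1-/- cells were also under it, at 0.597 FPKM in AM and 0.848 FPKM in PM.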

How the results depend on the processing

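The counts past 1.5-fold were small and depended on the limit. The main counts of genes higher and lower on the second day were 2 and 2 in Bmal1-/- and 17 and 23 in WT cells, and 16 positive and 12 negative for the difference. With a pseudocount of 0.1 FPKM they were 13 and 7, 37 and 57, and 54 and 31. With no fold limit they were 573 and 524, 1406 and 1727, and 764 and 523, and at 2-fold 0 and 1, 4 and 3, and 1 and 1. With no fold limit but an unadjusted p under 0.05, limma gave 2822 genes in either direction in Bmal1-/- cells. AM alone gave 7 and 9 in Bmal1-/- cells and 42 and 25 for the difference. PM alone gave 4 lower in Bmal1-/-, 29 higher and 76 lower in WT, and 41 and 20 for the difference. The linear time term gave 5 and 4 in Bmal1-/- cells. Leaving out each clock label in turn gave 2 to 5 higher and 1 to 5 lower in Bmal1-/-, 13 to 18 higher and 20 to 26 lower in WT, 11 to 22 positive and 12 to 17 negative. The highest Bmal1-/- counts came without label 06 (5 higher) and without label 18 (5 lower), and 1 was lower without label 00, 03, 06, 09 or 15. Of the genes past 1.5-fold, 3 of 4 in Bmal1-/- and 31 of 40 in WT cells had the same sign at 37 °C, and over these fits the share ranged over 66.7 to 100.0% in Bmal1-/- and 76.5 to 90.0% in WT cells. Under the other alternatives it was lowest in PM alone, at 57.1% and 68.6%. Median-of-ratios scaling, no filter on low values, and leaving out the pair CT12 and CT36 of WT AM kept all of these within 1.5 times. Without the replicate block, 1 gene was lower in Bmal1-/- cells. The deviations of paired libraries from their day's mean correlated at -0.093 to 0.267, over 0.1 in 5 of 32 pairs, and 9 of 32 correlated best with their own label. No named gene changed sign where it was called. Recomputed results of named genes were weaker in 271 cases and held in 1729 in Bmal1-/- cells, and in 230 and 2266 cases in WT cells or for the difference. In AM alone 102 were weaker and 179 held, and in PM alone 118 and 163. Recomputed under the alternatives, the counts of list members moved by more than 1.5 times in 19 cases and by less in 93 in Bmal1-/- cells, and in 29 and 227 cases in WT cells or for the difference. Depth is an estimate, and fold changes of genes at a few FPKM or less are understated on this scale, most of all under 1 FPKM. The cause of these shifts was not tested, other than the fold limits and smaller sets, which act by construction.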
